A study of Saccharomyces cerevisiae with 6 samples.

Results

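Target of rapamycin complex 1 (TORC1) is the kinase complex through which budding yeast (Saccharomyces cerevisiae) couples growth to nutrients. The group described here consisted of 10 genes of this pathway, chosen by name, out of 9891 rows in the deposited count table. These genes, and the wider pathway lists below, were chosen with earlier results of these data known. The group held the kinases TOR1 and TOR2, the subunits KOG1 and TCO89, the effector kinases SCH9 and NPR1, the phosphatase pair TAP42 and SIT4, and the GTPases GTR1 and GTR2. RNA-seq had been made from 3 libraries of purified quiescent cells and 3 libraries of log-phase cells, called biological replicates in the labels. Quiescent cells came from stationary cultures at day 7 and were the quiescent fraction of a Percoll density gradient, purified again on a fresh gradient. Log-phase cells were growing exponentially at an OD600 of 0.8 to 1.0. Both groups were the MATa strain YCH406, grown at 30 C in YPD with adenine (0.04 mg/mL) and ampicillin (50 mg/mL).

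All 6 libraries share the strain's alterations. Both pairs of histone H2A and H2B genes, HTA1-HTB1 and HTA2-HTB2, are labelled as deleted from the chromosomes, with LEU2 and TRP1 in their places. HTA1-HTB1 is carried on pSAB6 with URA3, and a Flag-tagged HTA1-HTB1 on pZS145 with HIS3. The strain also carries RPB3-9Myc::hphNT1, his3∆200, leu2∆1, ura3-52 and trp1∆. The labels list no allele of a TOR pathway gene.

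When nutrients are plentiful, TORC1 sits on the vacuole, is activated there through the Gtr GTPases, and phosphorylates Sch9 to promote ribosome synthesis and translation. Active TORC1 also holds Tap42 bound to phosphatases such as Sit4 and keeps the kinase Npr1 inactive. On starvation or rapamycin the complex falls silent, and cells enter a stress-resistant state. These controls act largely on proteins, by phosphorylation, so a transcript level does not give the activity of the complex.

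The labelled states were checked against markers. Total counts ran from 8894585 to 12696572 in quiescent and from 10476761 to 14213993 in log libraries. All 8 stationary-phase markers rose in quiescent cells, with log2 fold changes of 2.93 to 10.63, and all 6 growth and division markers fell, with -4.55 to -1.47. The 3 markers of mating type a were read in every library and fell in quiescent cells. The alpha marker STE3 had 74 to 95 reads in quiescent and 15 to 33 in log libraries, below the minimum for testing. HTA2, labelled as deleted, had 94 to 139 reads in quiescent and 125 to 161 in log libraries, and HTB2 had 77 to 125 in quiescent and 77 to 126 in log libraries. The source of these reads was not tested.

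The 10 genes have 1 coding exon each and lie on 8 chromosomes of build R64, with KOG1 and SCH9 on chromosome VIII and TAP42 and GTR1 on chromosome XIII. TOR1 (YJR066W) spans chrX:559416-566828 on the plus strand and TOR2 (YKL203C) spans chrXI:55935-63359 on the minus strand. These paralogs matched at 67.9% of aligned bases (4983 of 7343), and their longest identical run was 19 bases. It is shown because it bounds the sequence that a read could not assign to 1 of the 2 kinases. In TOR1 it covers bases 2809 to 2827 of the gene (chrX:562224-562242, plus strand), and in TOR2 bases 2836 to 2854 (chrXI:60506-60524, minus strand).
TOR1 and TOR2 shared run: attatgcatatttttcaaa
No 50-base window of any of the 10 genes occurred elsewhere in the genome, on either strand. GTR1 and GTR2 matched at 57.9% of aligned bases, with a longest identical run of 11 bases.

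Promoter windows, from 250 bases before to 50 bases within each gene, were read from the R64 genome and searched on both strands for 5 short motifs. AGGGG, the stress response element bound by Msn2 and Msn4, was in 3 of the 10 windows, against 21.6% of 6001 windows of all protein-coding genes. GATAAG, a site of GATA factors, was in 2 of 10, against 14.7%. The post-diauxic shift core AGGGAT, the PAC core GATGAG and the RRPE core AAAAATTTT were in 0 of the 10, against 9.33%, 20.4% and 6.98% of all windows. No 2 matches overlapped in these windows. The windows printed are those of NPR1, which changed most, of SCH9, which had the highest level, and of the paralogs TOR1 and TOR2. Motif matches are in capitals.
NPR1 (chrXIV:295460-295759, minus strand): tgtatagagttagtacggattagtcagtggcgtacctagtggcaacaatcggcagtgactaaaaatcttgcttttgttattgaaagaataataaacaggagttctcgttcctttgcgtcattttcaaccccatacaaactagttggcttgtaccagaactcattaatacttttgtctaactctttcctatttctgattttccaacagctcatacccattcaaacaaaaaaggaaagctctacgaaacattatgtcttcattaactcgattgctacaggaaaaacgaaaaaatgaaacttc
SCH9 (chrVIII:509113-509412, plus strand): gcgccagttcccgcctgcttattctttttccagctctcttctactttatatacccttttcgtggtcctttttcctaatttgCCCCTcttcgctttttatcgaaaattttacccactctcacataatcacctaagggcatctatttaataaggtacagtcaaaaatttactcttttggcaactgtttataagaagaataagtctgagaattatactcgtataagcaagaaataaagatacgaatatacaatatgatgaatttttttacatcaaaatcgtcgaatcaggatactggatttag
TOR1 (chrX:559166-559465, plus strand): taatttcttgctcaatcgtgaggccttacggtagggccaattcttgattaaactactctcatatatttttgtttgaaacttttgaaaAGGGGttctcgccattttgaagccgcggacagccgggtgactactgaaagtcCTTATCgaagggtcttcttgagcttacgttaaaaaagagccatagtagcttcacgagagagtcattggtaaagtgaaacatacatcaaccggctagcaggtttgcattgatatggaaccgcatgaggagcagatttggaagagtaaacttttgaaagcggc
TOR2 (chrXI:63310-63609, minus strand): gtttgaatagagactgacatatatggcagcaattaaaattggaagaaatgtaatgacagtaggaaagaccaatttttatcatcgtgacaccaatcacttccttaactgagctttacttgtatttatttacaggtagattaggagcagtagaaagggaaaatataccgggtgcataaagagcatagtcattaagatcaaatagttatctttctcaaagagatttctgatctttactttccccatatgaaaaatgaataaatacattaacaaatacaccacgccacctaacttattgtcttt
The SCH9 window held AGGGG on the reverse strand at -169 to -165 from the start codon. The TOR1 window held AGGGG at -163 to -159 and GATAAG on the reverse strand at -111 to -106. The TOR2 and NPR1 windows held none of the 5 motifs. Beyond those shown, SIT4 had AGGGG and TAP42 had GATAAG. A match describes letters only, and no binding was measured in these files.

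Reads of the 10 genes were a larger share of protein-coding reads in quiescent cells. They took 0.191%, 0.210% and 0.186% of protein-coding reads in quiescent replicates 1, 2 and 3, against 0.0799%, 0.0801% and 0.0754% in log replicates 1, 2 and 3. The groups did not overlap in this share. How many other genes gained share in the same way was not counted, but a gain is not particular to these 10. With counts scaled by library totals, the median protein-coding gene was at -0.45 on the log2 scale. That is a smaller fall than the fall in the protein-coding share of reads given below, so the median gene gained share as well. Some abundant transcripts fell, with RPL3 averaging 2955 CPM in log and 154 CPM in quiescent cells. The part of such falls in the share of the 10 genes was not tested. Protein-coding rows themselves took 41.4%, 31.8% and 28.1% of all reads in the quiescent libraries, against 72.1%, 66.0% and 64.1% in the log libraries. Rows of the ribosomal DNA unit took 16.2%, 35.0% and 38.5% of reads in quiescent replicates 1, 2 and 3, against 4.68%, 14.0% and 19.3% in log replicates 1, 2 and 3. All 6 libraries were made from depleted RNA (250 ng each), so these shares describe library reads and need not match the RNA of the cells. The part of this difference in library makeup in the results was not tested. Fold changes between the states therefore depended on how the libraries were scaled, and their values under other scalings are given beside them. In bulk RNA, fewer expressing cells and less RNA per cell cannot be told apart.

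In the edgeR quasi-likelihood test across 7305 rows, with TMM scaling and Benjamini-Hochberg adjustment, 5 of the 10 genes rose in quiescent cells and 1 fell. NPR1, TCO89, TAP42, SCH9 and TOR2 rose, KOG1 fell, and TOR1, SIT4, GTR1 and GTR2 did not pass. Of all tested rows, 32.8% rose and 35.2% fell in this test, and of protein-coding rows 31.8% rose and 41% fell. The median log2 fold change (quiescent minus log) was 0.41 for the 10 genes, -0.02 for all tested rows and -0.21 for protein-coding rows. Together 6 of the 10 were called, where 67.9% of all tested rows were.

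**Figure D1:**
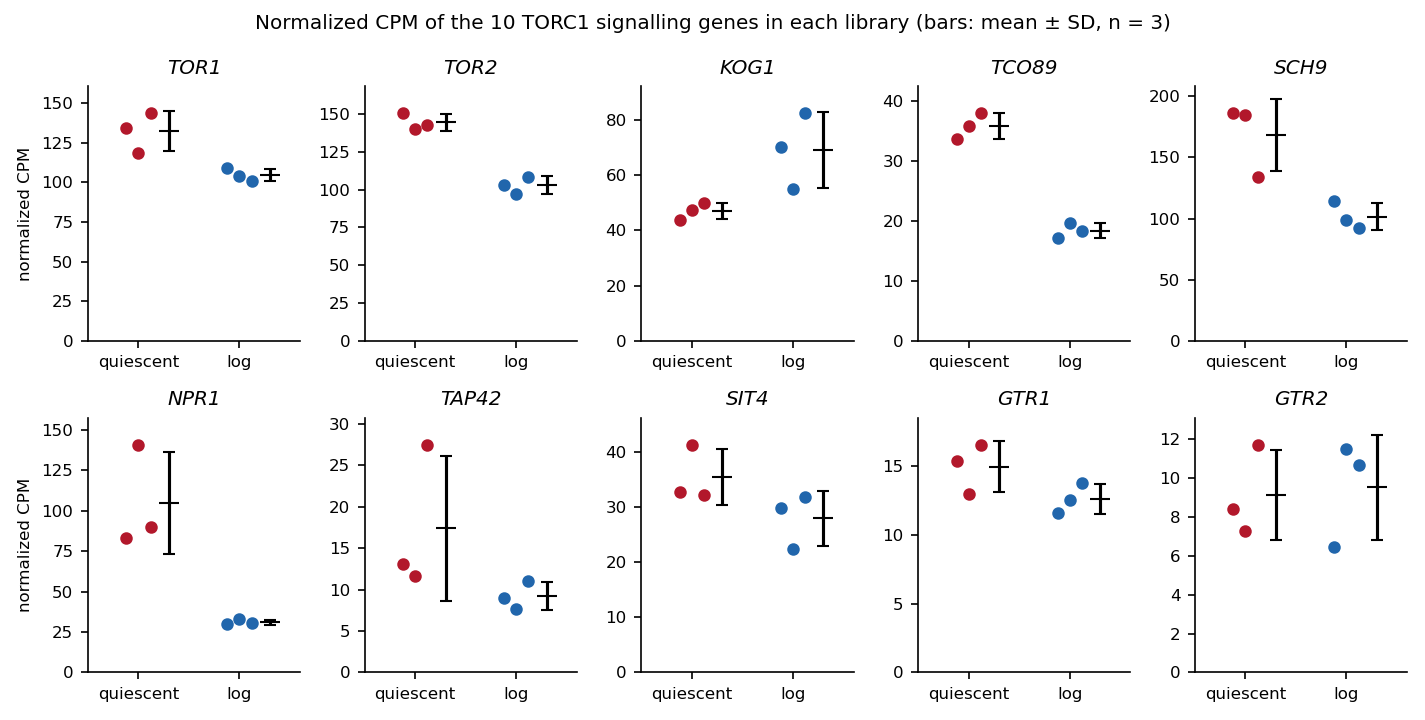
Normalized CPM (library-scaled counts after TMM) of each gene, on linear axes from 0, with 1 point per library and the mean ± SD beside the points (n = 3). The quiescent libraries of NPR1 lie at 83.0 to 140.9 CPM, above the log libraries at 30.1 to 32.8, and those of KOG1 lie below the log libraries.

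Both effector kinase genes rose in the edgeR test, and NPR1 changed most of the 10, while SCH9 was below 0 on the log2(TPM + 1) scale. NPR1 (YNL183C, chrXIV:293137-295509), the kinase that stabilises nitrogen permeases, had 832, 1613 and 838 reads in quiescent replicates 1, 2 and 3, against 430, 394 and 418 reads in log replicates 1, 2 and 3. As normalized CPM these were 83.0, 140.9 and 89.9 in quiescent libraries, against 30.1, 32.8 and 30.4 in log libraries. Every quiescent library lay above every log library, and quiescent replicate 2 stood above the other two. The log2 fold change was 1.75 (SE 0.23), a 3.36-fold rise, with an adjusted p of 6.8e-05 in the edgeR test. It kept its direction in all 16 settings in which it was tested and passed in 14. On the log2(TPM + 1) scale, where the median protein-coding gene was at -0.98, NPR1 was at 0.62 (limma adjusted p = 0.0603). Every later value on this scale has the same reference. The spread of NPR1 in quiescent libraries, a coefficient of variation of 30.2%, was far above the 3.02% that counting alone gives.

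SCH9 (YHR205W, chrVIII:509363-511837), the AGC kinase that carries TORC1 signals to ribosome synthesis, had 186.1, 184.4 and 134.0 CPM in quiescent replicates 1, 2 and 3, against 114.1, 98.9 and 92.1 CPM in log replicates 1, 2 and 3. The groups did not overlap, with quiescent replicate 3 lowest in its group. The log2 fold change was 0.73 (SE 0.20, edgeR adjusted p = 0.00823). This rise passed without each of the 6 libraries in turn, did not pass with total-count scaling (0.52, adjusted p = 0.170), and stood at -0.28 on the log2(TPM + 1) scale.

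The genes of the TORC1-specific subunits went opposite ways in the edgeR test. TCO89 (YPL180W, chrXVI:205248-207647), which encodes a non-essential subunit found in TORC1 and not in TORC2, had 33.7, 35.9 and 38.0 CPM in quiescent replicates 1, 2 and 3, against 17.1, 19.7 and 18.4 CPM in log replicates 1, 2 and 3. KOG1 (YHR186C, chrVIII:475999-480672), the essential Raptor-like scaffold that presents substrates, had 43.8, 47.2 and 49.8 CPM in quiescent replicates 1, 2 and 3, against 70.0, 54.8 and 82.3 CPM in log replicates 1, 2 and 3. All quiescent libraries were above all log libraries for TCO89 and below them for KOG1. TCO89 rose by 0.96 on the log2 scale (SE 0.17, edgeR adjusted p = 0.00064), passed without each library in turn, and was -0.04 when fitted on log2(TPM + 1). KOG1 changed by -0.56 (SE 0.19, edgeR adjusted p = 0.0266). Its direction held in all 16 settings in which it was tested, from -1.51 to -0.35. Its call was lost without log replicate 1 (adjusted p = 0.0675), log replicate 3 (0.15), quiescent replicate 1 (0.0899) or quiescent replicate 3 (0.0737). It was also lost with DESeq2 size factors (-0.51, adjusted p = 0.0527) and with TMM from protein-coding rows (-0.35, adjusted p = 0.134).

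The ratio of 2 genes within a library does not depend on scaling between libraries. KOG1 over TCO89, in counts per kilobase, was 0.667, 0.676 and 0.673 in quiescent replicates 1, 2 and 3, against 2.1, 1.43 and 2.3 in log replicates 1, 2 and 3. KOG1 thus had the higher length-scaled count in each log library and TCO89 in each quiescent library. The log2 ratio averaged -0.57 ± 0.01 in quiescent cells and 0.93 ± 0.37 in log cells (SD, n = 3 each), a difference of -1.5. The exact two-sided permutation p was 0.1, the smallest that 3 against 3 libraries allow, and 0.25 after Benjamini-Hochberg adjustment over the 5 pairs compared.

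**Figure D2:**
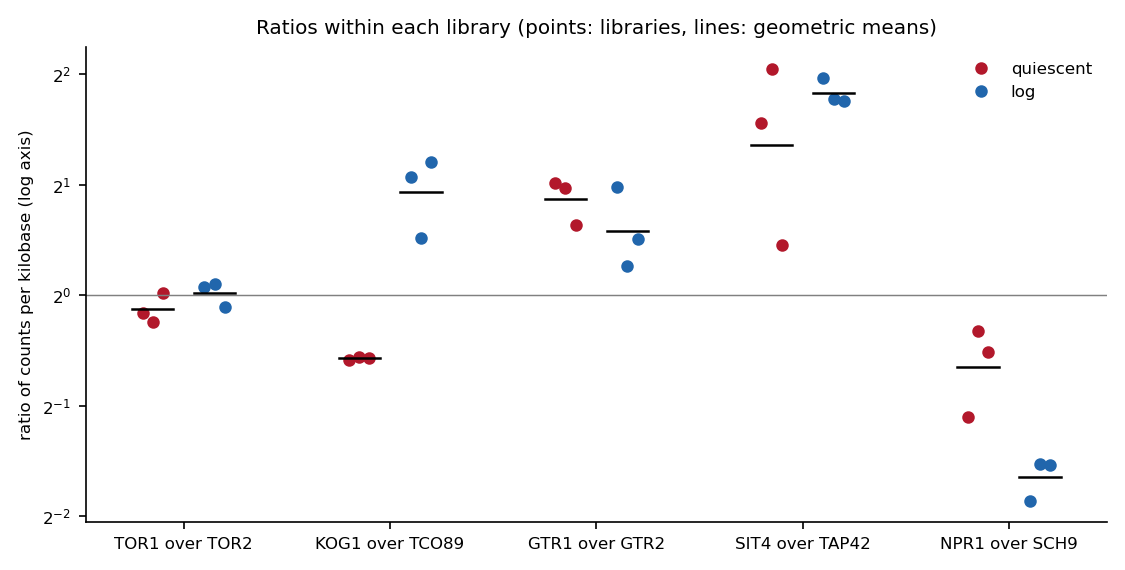
Ratio of counts per kilobase between paired genes in each library (log axis, 1 point per library, lines at geometric means, quiescent left of log). KOG1 over TCO89 is 0.667 to 0.676 in quiescent libraries, all below the log libraries, and NPR1 over SCH9 is above the log libraries in all 3 quiescent ones.

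The catalytic kinase genes showed small differences, and their ratio to each other overlapped between the states. TOR1, which encodes a kinase used in TORC1, had 1347, 1357 and 1337 reads in quiescent replicates 1, 2 and 3, against 1555, 1249 and 1385 reads in log replicates 1, 2 and 3. In normalized CPM it had 134.4, 118.5 and 143.5 in quiescent libraries, against 108.9, 104.0 and 100.9 in log libraries. The quiescent libraries lay above the log libraries, but the log2 fold change of 0.34 (SE 0.17) did not pass (edgeR adjusted p = 0.103). TOR1 passed upward with TMM from protein-coding rows (0.54, adjusted p = 0.0171) and without quiescent replicate 2 (0.43, adjusted p = 0.0384). It passed downward on the log2(TPM + 1) scale (-0.57, limma adjusted p = 0.0414), where the median protein-coding gene was lower still, at -0.98.

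TOR2, whose kinase serves in both TORC1 and TORC2, had 150.5, 140.3 and 142.5 CPM in quiescent replicates 1, 2 and 3, against 103.4, 96.9 and 108.7 CPM in log replicates 1, 2 and 3. The groups did not overlap and their spreads were narrow. It rose by 0.49 on the log2 scale (SE 0.17, edgeR adjusted p = 0.0235), while its log2(TPM + 1) value was -0.44. The call was lost without log replicate 1 (adjusted p = 0.0892), without log replicate 2 (0.0912), without a filter on low values (0.34, adjusted p = 0.144) and with total-count scaling (0.27, adjusted p = 0.447). With a replicate block in the edgeR fit TOR2 was at 0.49 and did not pass (adjusted p = 0.0607).

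TOR1 over TOR2 was 0.895, 0.846 and 1.01 in quiescent replicates 1, 2 and 3, against 1.05, 1.07 and 0.93 in log replicates 1, 2 and 3. The groups overlapped, and the log2 ratio differed by -0.16 (exact permutation p = 0.2, adjusted p = 0.333). The paralogs were thus read at nearly equal length-scaled levels in both states. With 3 libraries a group the smallest possible p of this test is 0.1. It could therefore not call a difference of TOR1 from TOR2 between the states.

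Of the phosphatase pair, only TAP42 passed the edgeR test, and the ratio of the 2 genes overlapped between the states. TAP42 (YMR028W, chrXIII:327482-328582), whose product binds the catalytic subunits of type 2A phosphatases, had 13.1, 11.7 and 27.5 CPM in quiescent replicates 1, 2 and 3, against 8.96, 7.66 and 11.1 CPM in log replicates 1, 2 and 3. The groups did not overlap, but quiescent replicate 3 had more than the other two combined. The log2 fold change was 0.91 (SE 0.34, edgeR adjusted p = 0.0363) and 0.47 without quiescent replicate 3 (adjusted p = 0.174). The call was also lost without log replicate 1 (adjusted p = 0.0848), without log replicate 2 (0.111), without a filter (0.0679) and with total-count scaling (0.108), and the value was -0.15 on the log2(TPM + 1) scale.

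SIT4 (YDL047W, chrIV:369771-370706), the phosphatase itself, had 32.7, 41.2 and 32.1 CPM in quiescent replicates 1, 2 and 3, against 29.7, 22.3 and 31.7 CPM in log replicates 1, 2 and 3. The lowest quiescent library was only just above the highest log library, and the log2 fold change of 0.34 (SE 0.20) did not pass (edgeR adjusted p = 0.160). It passed upward with TMM from protein-coding rows (0.54, adjusted p = 0.0346) and with the 10 TPM filter (0.83, adjusted p = 0.00621), and was at -0.61 on the log2(TPM + 1) scale. SIT4 over TAP42 was 2.95, 4.14 and 1.37 in quiescent replicates 1, 2 and 3, against 3.9, 3.43 and 3.37 in log replicates 1, 2 and 3. The groups overlapped (difference in log2 ratio -0.47, exact permutation p = 0.5, adjusted p = 0.5), and without quiescent replicate 3 the difference was -0.03.

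The GTPases of the vacuolar EGO complex, which load TORC1 in response to amino acids, had the smallest fold changes of the 10 in the edgeR test. GTR1 (YML121W, chrXIII:26930-27862) had 15.4, 12.9 and 16.5 CPM in quiescent replicates 1, 2 and 3, against 11.6, 12.5 and 13.8 CPM in log replicates 1, 2 and 3. GTR2 (YGR163W, chrVII:827552-828577) had 8.38, 7.25 and 11.7 CPM in quiescent replicates 1, 2 and 3, against 6.44, 11.5 and 10.6 CPM in log replicates 1, 2 and 3. In both genes the groups overlapped. GTR1 was at 0.24 (SE 0.22, edgeR adjusted p = 0.334) and GTR2 at -0.07 (SE 0.31, adjusted p = 0.860), with 83 to 109 reads of GTR2 in a quiescent library and 92 to 146 in a log library. On the log2(TPM + 1) scale both fell, GTR1 by 0.64 (limma adjusted p = 0.0245) and GTR2 by 0.80 (0.00886). The median protein-coding gene was at -0.98 on that scale, so both fell less than it did. GTR1 over GTR2 was 2.02, 1.96 and 1.55 in quiescent replicates 1, 2 and 3, against 1.97, 1.2 and 1.42 in log replicates 1, 2 and 3, with overlap (difference in log2 ratio 0.29, exact permutation p = 0.3, adjusted p = 0.375).

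NPR1 and SCH9 lie on opposite sides of TORC1, the one held inactive by it and the other activated. NPR1 over SCH9 was 0.465, 0.797 and 0.7 in quiescent replicates 1, 2 and 3, against 0.275, 0.346 and 0.345 in log replicates 1, 2 and 3. The ratio was higher in every quiescent library, by 1.99-fold on the geometric mean. The log2 ratio averaged -0.65 ± 0.40 in quiescent cells and -1.64 ± 0.19 in log cells (SD, n = 3 each), and the exact permutation p was 0.1 (adjusted p = 0.25).

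TMM from protein-coding rows and total-count scaling each moved all 10 fold changes by a similar amount. The log2(TPM + 1) scale moved them less evenly, with NPR1 going from 1.75 to 0.62 and KOG1 from -0.56 to -1.23. The median protein-coding gene was at -0.21 in the edgeR test, at -0.01 with TMM from protein-coding rows, at -0.45 with total counts and at -0.98 on the log2(TPM + 1) scale. Set against that median, NPR1 lay 1.6 to 2.13 above it over the 16 settings in which it was tested, of 17 in all. TCO89 lay 0.94 to 1.24 above, SCH9 0.70 to 1.71, TAP42 0.62 to 1.36, TOR2 0.54 to 0.74, TOR1 0.41 to 0.64, SIT4 0.37 to 1.33 and GTR1 0.34 to 0.57. GTR2 ran from -0.08 to 0.31, and KOG1 lay below the median in every setting, from -0.50 to -0.21. So 8 of the 10 changed less downward, or more upward, than the median gene in every setting in which they were tested. Subtracting the median removes any shift common to all genes, so agreement between scalings was largely built in. In any 1 setting as many genes lie above the median as below it. Among fold changes of protein-coding genes in the edgeR test, these 8 ran from the 60.0 percentile (GTR1) to the 85.0 percentile (NPR1). The share of all genes above the median in every setting was not counted, and the settings reuse the same libraries.

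**Figure D3:**
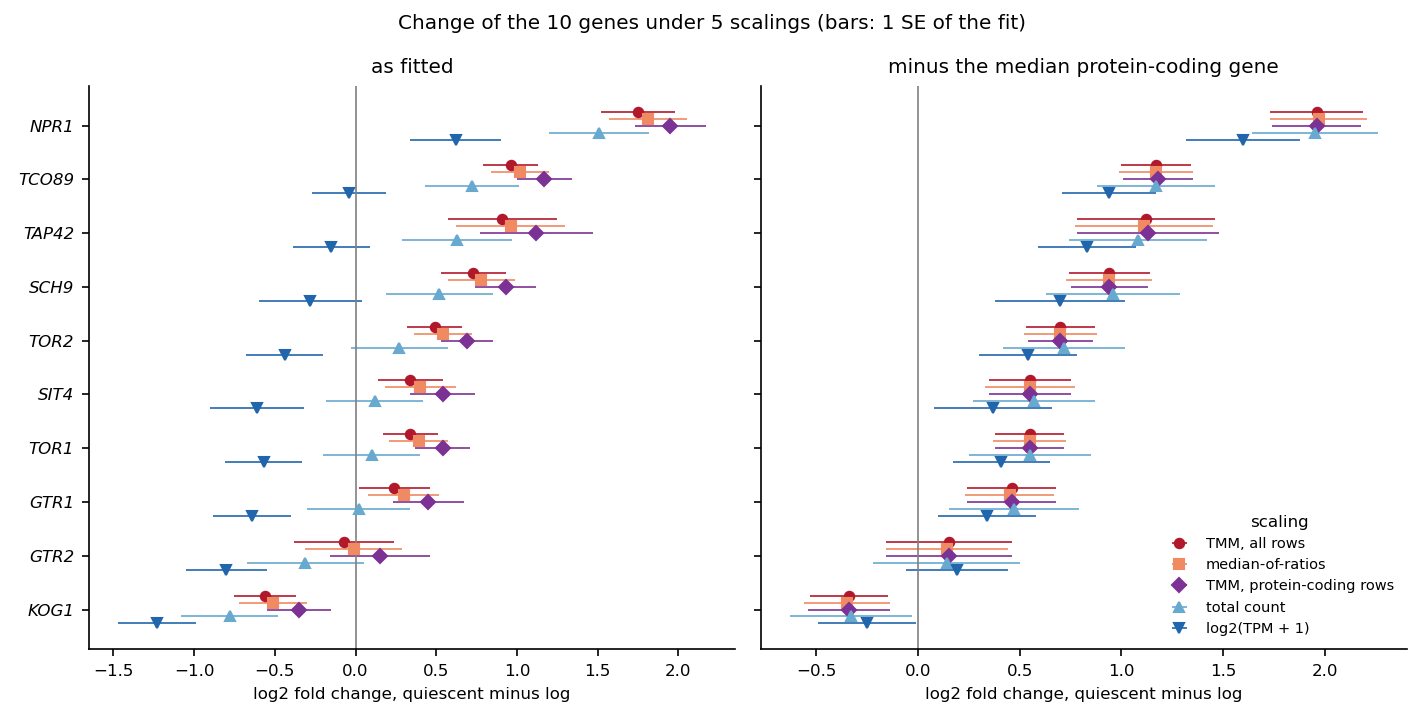
Log2 fold change, quiescent minus log, of each gene under 5 scalings, as fitted (left) and after subtracting the median protein-coding gene of the same scaling (right), with bars of 1 SE. As fitted, TCO89 runs from -0.04 on the log2(TPM + 1) scale to 1.17 with TMM from protein-coding rows. After the subtraction, which removes any shift common to all genes, the 5 scalings lie close together.

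The rank of a gene among the 5608 tested protein-coding genes of its own library, by length-scaled count, needs no scaling between libraries. NPR1 was at the 78.9 ± 5.01 percentile in quiescent cells and at 41.8 ± 1.09 in log cells. TCO89 was at 48.2 ± 3.12 in quiescent and 22.8 ± 1.61 in log cells, and TAP42 was at 47.6 ± 17.1 in quiescent and 25.5 ± 7.07 in log cells (SD, n = 3 each). These 3 genes had the largest gains in rank.

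SCH9 was at the 87.0 ± 1.93 percentile in quiescent and 74.4 ± 2.80 in log cells, the highest of the 10 in both states. TOR2 was at 57.8 ± 1.31 in quiescent and 43.6 ± 2.78 in log cells, and TOR1 at 54.8 ± 4.24 in quiescent and 44.4 ± 1.46 in log cells. KOG1 alone ranked lower in quiescent cells without overlap, at 33.6 ± 2.65 against 45.0 ± 7.50 in log cells. Ranks rose without overlap for 7 genes and fell for 1, while 37.3% of all tested protein-coding genes rose and 40.7% fell in this way. GTR1 and GTR2 overlapped between the states.

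**Figure D4:**
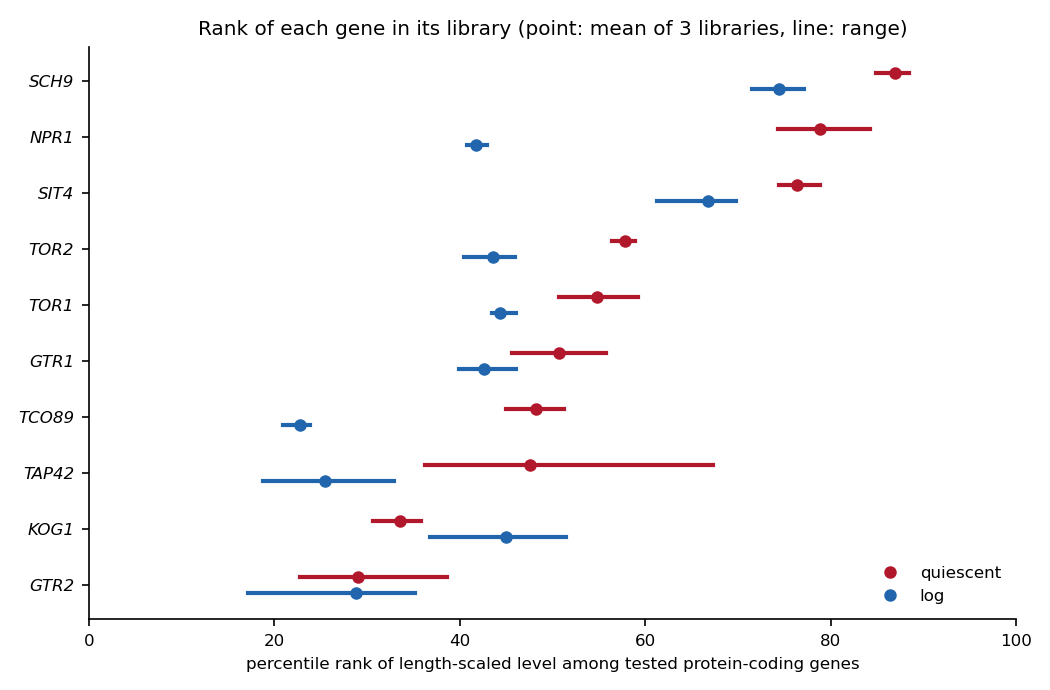
Percentile rank of the length-scaled count of each gene among tested protein-coding genes of the same library (point: mean of 3 libraries, line: their range, quiescent above log). NPR1 stands at 78.9 in quiescent and 41.8 in log cells, and KOG1 is the gene whose quiescent range lies wholly below its log range.

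Ordered by length-scaled level (normalized CPM per kilobase), SCH9 came first in both states, at 68.0 ± 11.9 in quiescent and 41.1 ± 4.53 in log cells. In quiescent cells NPR1 (44.1 ± 13.3) and SIT4 (37.8 ± 5.45) followed, and the ranges of SCH9, NPR1 and SIT4 overlapped from each to the next. A gap without overlap separated SIT4 from TOR2 (19.5 ± 0.716), TOR1 (17.8 ± 1.71), GTR1 (16.0 ± 1.97), TAP42 (15.8 ± 7.94) and TCO89 (14.9 ± 0.890), which did not differ beyond their spread from neighbour to neighbour. KOG1 (10.1 ± 0.644) came next, below TCO89 without overlap, and its range overlapped those of TAP42 and of GTR2 (8.89 ± 2.26), the lowest.

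In log cells SIT4 (29.8 ± 5.28) held place 2, with no overlap with SCH9 or with the genes that followed. KOG1 (14.8 ± 2.95), TOR1 (14.1 ± 0.543), TOR2 (13.9 ± 0.793), GTR1 (13.5 ± 1.19) and NPR1 (13.1 ± 0.621) followed with overlapping ranges. GTR2 (9.29 ± 2.64), TAP42 (8.39 ± 1.56) and TCO89 (7.68 ± 0.539) were lowest, below NPR1 without overlap. NPR1 thus held place 2 in quiescent cells and place 7 in log cells, and KOG1 held place 9 in quiescent cells and place 3 in log cells.

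Genes with the most similar profile over the 6 libraries were sought for the genes at either end. For NPR1 these were GRX6, RLM1 and PUF3, with root-mean-square differences of 0.141, 0.142 and 0.153 in mean-centred log2 CPM. For KOG1 they were VCX1 (0.0922), PEX25 (0.0937) and OSH3 (0.104). With 2 states, such likeness reflects mostly the size of the change between them.

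No annotated gene overlapped any of the 10, but 15 lay within 500 bases of one, and the strand setting of the counts is not given in the sources used here. IPI3, which encodes a ribosome biogenesis factor and lies 450 bases from NPR1 on the same strand, had a log2 fold change of -3.02 (SE 0.33, edgeR adjusted p = 1.92e-05). The gene beside TAP42, FAR8, lies 77 bases away on the opposite strand and rose by 1.28 (SE 0.18, adjusted p = 9.89e-05). CTI6, 306 bases from TCO89 on the same strand, rose by 1.27 (SE 0.19, adjusted p = 0.000185). NDI1, 403 bases from GTR1 on the opposite strand, rose by 1.78 (SE 0.19, adjusted p = 1.39e-05). ARP3, 257 bases from TOR1 on the opposite strand, was at -1.38 (SE 0.18, adjusted p = 7.33e-05). No other neighbour that was tested passed. Whether reads of these neighbours entered the counts was not tested.

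Around the 10 genes, the wider pathway was read in 8 lists with 73 genes, all of which were tested. In the edgeR test 34 of the 73 rose, 15 fell and 24 did not pass, with a median log2 fold change of 0.37. That is 46.6% higher and 20.5% lower, where 32.8% of all tested rows were higher and 35.2% lower. On the log2(TPM + 1) scale 14 rose and 32 fell. Of all 7305 tested rows, 1059 rose and 3936 fell on that scale, with the median protein-coding gene at -0.98. The counts of the single lists are descriptions beside those counts and shares of all rows.

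Of the TORC1 partners, LST8 and FPR1 behaved differently. LST8, the subunit that TORC1 shares with TORC2, had 17.2, 20.5 and 14.3 CPM in quiescent replicates 1, 2 and 3, against 16.7, 13.4 and 19.5 CPM in log replicates 1, 2 and 3. The groups overlapped and it did not pass (0.07, SE 0.23, edgeR adjusted p = 0.806). On the log2(TPM + 1) scale LST8 fell by 0.80 (limma adjusted p = 0.0149), where the median protein-coding gene was at -0.98. FPR1, the FK506- and rapamycin-binding proline isomerase, averaged 22.5 ± 5.72 CPM in quiescent cells and 244.9 ± 15.1 CPM in log cells (SD, n = 3 each). It fell by 3.45 on the log2 scale (SE 0.23, adjusted p = 5.95e-07) and was called lower in all 17 settings.

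The EGO scaffold, which anchors the Gtr GTPases to the vacuole, had 1 gene higher and 1 lower of 3 in the edgeR test. EGO2 averaged 3.51 ± 1.10 CPM in quiescent cells and 7.21 ± 1.01 CPM in log cells and fell by 1.03 (SE 0.34, edgeR adjusted p = 0.0214). SLM4 averaged 29.3 ± 10.8 CPM in quiescent and 16.5 ± 4.30 CPM in log cells and rose by 0.83 (SE 0.29, adjusted p = 0.0257), but was at -0.20 on the log2(TPM + 1) scale. MEH1 did not pass, at -0.48 (SE 0.33, adjusted p = 0.220). Both EGO2 (-1.80) and MEH1 (-1.27, limma adjusted p = 0.000625) were lower on the log2(TPM + 1) scale, and 0 of the 3 genes were higher.

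Most regulators of the Gtr GTPases did not pass. Of 12 genes, which encode the SEA complex and other Gtr regulators, 1 rose, 2 fell and 9 did not pass (median 0.13). IML1, of the GTPase-activating part that silences Gtr1, rose by 0.61 (SE 0.19, edgeR adjusted p = 0.0151) and was at -0.30 on the log2(TPM + 1) scale. SEC13 (-1.91, SE 0.18, adjusted p = 5.43e-06) and SEH1 (-1.08, SE 0.20, adjusted p = 0.000796) fell, and both also encode subunits of the nuclear pore. SEC13 was at -2.73 and SEH1 at -1.83 on the log2(TPM + 1) scale. There 10 of the 12 fell, with a list median of -0.71, which is 0.27 above the median protein-coding gene.

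The list of TORC2, the Tor2 complex of the plasma membrane, and its substrates had more risers. This list also holds the kinases PKH1 and PKH2, which are neither subunits nor substrates of TORC2. Of 11 genes, 8 rose and 2 fell (median 2.10), and on the log2(TPM + 1) scale 6 rose and 2 fell. PKH2, a kinase that phosphorylates AGC kinases, averaged 199.5 ± 35.9 CPM in quiescent and 20.5 ± 2.14 CPM in log cells (3.28, SE 0.21, edgeR adjusted p = 4.97e-07). SLM1, a TORC2 substrate bound to membrane lipid, rose by 2.68 (SE 0.19, adjusted p = 8.16e-07), and AVO2, a TORC2 subunit, by 2.55 (SE 0.31, adjusted p = 3.86e-05). These 3 genes were called higher in all 16 settings in which they were tested. The 2 fallers in the edgeR test were BIT61 (-1.58, SE 0.39, adjusted p = 0.0046) and YPK1 (-0.62, SE 0.18, adjusted p = 0.011). TSC11 did not pass (0.26, SE 0.18, adjusted p = 0.228).

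In the phosphatase list 5 of 14 genes rose, 5 fell and 4 did not pass (median 0.03), which is 35.7% in each direction and close to the shares of all tested rows. On the log2(TPM + 1) scale 0 rose and 8 fell, with a list median of -0.80 against -0.98 for the median protein-coding gene. SAP155, a Sit4-associated protein, rose by 1.57 (SE 0.19, edgeR adjusted p = 3.87e-05), TIP41, which interacts with Tap42, by 1.5 (SE 0.20, adjusted p = 7.79e-05), and RRD2, an activator of type 2A phosphatases, by 1.16 (SE 0.24, adjusted p = 0.00143). On the log2(TPM + 1) scale they were at 0.51, 0.44 and 0.11 and did not pass. The type 2A catalytic paralogs differed in sign in the edgeR test and both were negative on the log2(TPM + 1) scale. PPH21 averaged 85.2 ± 7.06 CPM in quiescent and 57.5 ± 3.87 CPM in log cells (0.57, SE 0.17, adjusted p = 0.0116), and PPH22 averaged 23.8 ± 4.41 CPM in quiescent and 50.4 ± 1.19 CPM in log cells (-1.08, SE 0.19, adjusted p = 0.000627). PPH21 was at -0.43 and PPH22 at -1.90 on the log2(TPM + 1) scale, and the difference between the paralogs was not tested. About 15.2% of the 50-base windows of PPH21 and 14.8% of those of PPH22 occur elsewhere in the genome, so their split is uncertain.

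Growth and quiescence effectors downstream of TORC1 mostly rose, with 11 of 14 higher and 1 lower (median 1.13), against 5 higher and 3 lower on the log2(TPM + 1) scale. CRF1, a corepressor of ribosomal protein genes, averaged 126.4 ± 40.4 CPM in quiescent cells and 2.38 ± 0.980 CPM in log cells (5.74, SE 0.37, edgeR adjusted p = 4.97e-07). GIS1, a transcription factor acting after the diauxic shift, rose by 3.59 (SE 0.28, adjusted p = 1.89e-06), and STB3, a repressor of ribosome biogenesis genes, by 2.51 (SE 0.27, adjusted p = 1.55e-05). These were called higher in every setting in which they were tested.

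Of 10 nitrogen branch genes, 4 rose and 3 fell (median 0.27), against 1 risen and 5 fallen on the log2(TPM + 1) scale (median -0.64). DAL80, a GATA repressor of nitrogen-regulated genes, averaged 17.3 ± 3.88 CPM in quiescent and 0.882 ± 0.304 CPM in log cells (4.26, SE 0.36, edgeR adjusted p = 2.72e-06), and was at 1.97 on the log2(TPM + 1) scale. BUL2, an adaptor of the ubiquitin ligase Rsp5, fell by 1.01 (SE 0.21, adjusted p = 0.00174) and was at -1.45 on the log2(TPM + 1) scale. PAR32, an inhibitor of ammonium permeases that Npr1 controls, rose by 0.93 (SE 0.18, adjusted p = 0.00109) and was at -0.09 on the log2(TPM + 1) scale.

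Of 7 genes of autophagy induction and retrograde signalling, 4 rose and 0 fell (median 0.51), against 2 risen and 0 fallen on the log2(TPM + 1) scale (median -0.43). ATG1, the kinase that starts autophagy, averaged 267.2 ± 39.7 CPM in quiescent and 15.1 ± 3.81 CPM in log cells (4.14, SE 0.26, edgeR adjusted p = 3.98e-07). ATG17, a scaffold of the same step, rose by 2.21 (SE 0.35, adjusted p = 0.000256). Both were called higher in every setting in which they were tested. RTG1, a retrograde transcription factor, passed at 0.75 (SE 0.30, adjusted p = 0.0441) with overlapping groups, and was at -0.28 on the log2(TPM + 1) scale.

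**Figure D5:**
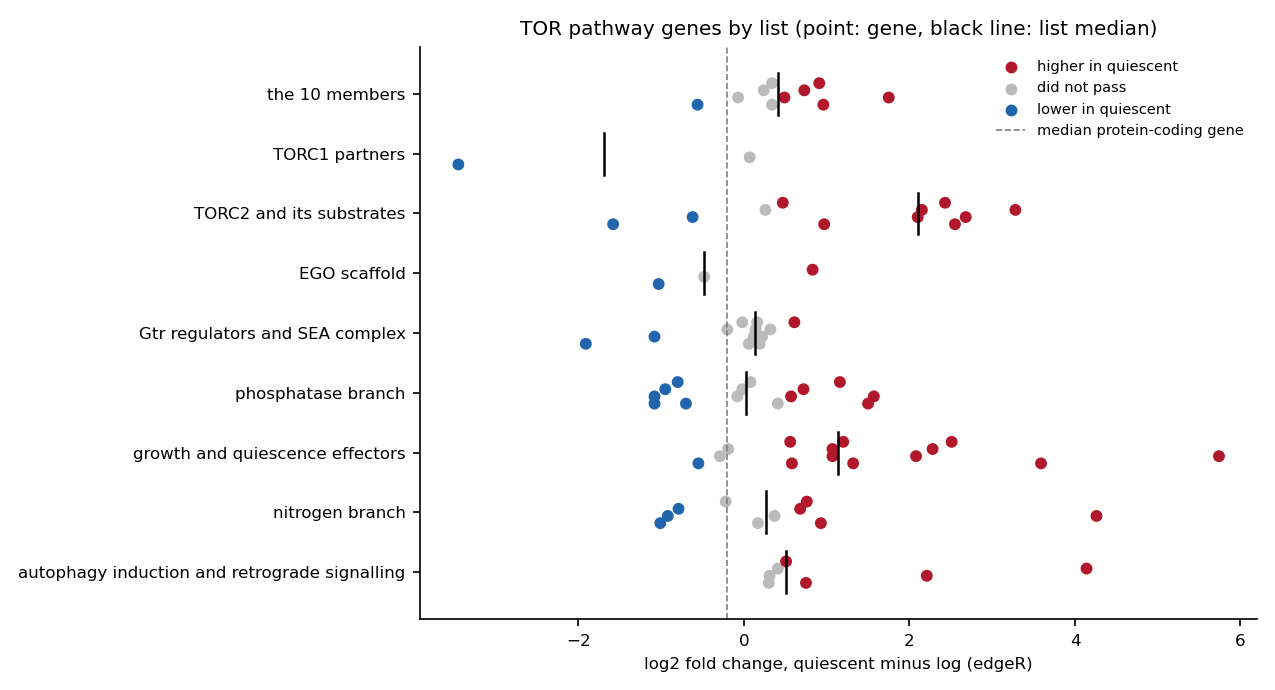
Log2 fold change, quiescent minus log, of each gene of the pathway in the edgeR test (1 point per gene, coloured by call, black line at the list median, dashed line at the median protein-coding gene, -0.21). The 9 Gtr regulators that did not pass lie near 0, with a list median of 0.13. The list of TORC2 and its substrates, which also holds PKH1 and PKH2, has a median of 2.10.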

How the data were processed

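The authors deposited raw read counts per feature with feature lengths in bases, per the file headers. The submitters' processing notes name build R64. The sources used here do not name the aligner, the counting tool or the strand setting. A further 6 columns of per-sample values, authors' TPM, were not used. TPM here was computed from counts and lengths. The table's length was 1 base below the annotated span in 6012 of 6048 matched rows.

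Testing covered the 7305 rows (5608 protein-coding) whose TPM averaged 1 or more across all libraries. Counts entered the quasi-likelihood test of edgeR 4.0.16 in R 4.3.3, two-sided, with TMM scaling, no covariate and Benjamini-Hochberg adjustment over all tested rows at 0.05. SE in this test is the absolute log2 fold change divided by the square root of F. The biological coefficient of variation was 0.264. Replicates of a group differed by far more than counting noise. Ratios were compared by exact permutation tests. Alternatives used DESeq2 1.42.0, limma 3.58.1, other scalings and filters, a replicate block, and each library left out. The edgeR function was tested on simulated data.

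Members and lists were chosen with earlier results of these data known. Named pathway genes were the 3 called genes of largest change in each list, plus LST8, FPR1, MEH1, EGO2, SLM4, TIP41, PPH21 and PPH22. PKH1, BIT61, YPK1 and TSC11 of the TORC2 list were named as well. Promoters were cut from the RefSeq R64 genome. A planned protein comparison was not run.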

Additional observations from a re-analysis of the deposited data

How the results depend on the processing

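Calls of the 10 genes depended on scaling, filters and single libraries. Against 5 higher and 1 lower, the counts were 5 and 0 with DESeq2 size factors or DESeq2, 2 and 1 with total counts, 7 and 0 with TMM from protein-coding rows, 3 and 1 without a filter, 2 and 0 with a minimum fold of 1.5, 0 and 4 on log2(TPM + 1) and 0 and 3 on log2(TPM + 0.1). With a filter of 10 TPM, which left SCH9 and SIT4, 2 were higher and 0 lower. Leaving out 1 library gave 3 to 6 higher and 0 to 1 lower. Over all rows, 2393 were higher and 2569 lower, against 1059 and 3936 on log2(TPM + 1), 1035 and 3892 on log2(TPM + 0.1), and 949 and 1086 with the 10 TPM filter. The share of calls that were higher was 48.2%, against 21.2% on log2(TPM + 1). Pathway genes, 34 higher and 15 lower, gave 14 and 32 on both TPM scales, 13 and 4 with the 10 TPM filter and 9 lower with the minimum fold.

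Direction reversed on log2(TPM + 1) for TOR1 (-0.57), TOR2 (-0.44), TCO89 (-0.04), SCH9 (-0.28), TAP42 (-0.15), SIT4 (-0.61) and GTR1 (-0.64). On log2(TPM + 0.1) these were -0.67, -0.52, -0.05, -0.30, -0.19, -0.66 and -0.76. The median protein-coding gene was lower than each of these values, at -0.98 on log2(TPM + 1) and -1.21 on log2(TPM + 0.1). GTR2, at -0.07, was at 0.15 with TMM from protein-coding rows and at -0.29 to 0.09 with 1 library left out, with 0.02 without quiescent replicate 1, 0.07 without log replicate 3, and 0.09 without log replicate 2 or quiescent replicate 2. The cause was not tested. No ratio changed sign. Of 20 places in the order of levels, 13 to 18 were kept with 1 library left out.

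No pairing of the libraries by the replicate numbers shared by the groups was seen. Whether these numbers stand for shared cultures or preparations was not tested. Same-numbered correlations of deviations were 0.0532, -0.0805 and -0.0343, and only quiescent replicate 1 correlated best with its own number. With a replicate block, 4 genes were higher and 1 lower, and TOR2 had an adjusted p of 0.0607. The KOG1 over TCO89 difference within numbers was -1.5 (exact sign-flip p = 0.25, the smallest 3 pairs allow).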
